A study of Mus musculus with 8 samples.

Results

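The genes described here make prostaglandin E2, respond to it or break it down. The list held 10 of them: Pla2g4a, Ptgs1, Ptgs2, Ptges, Ptges2, Ptges3, Hpgd, Ptger1, Ptger4 and Ptgr1. They were matched by gene symbol to Ensembl identifiers, a rule that uses no measured value, although the list was drawn up with earlier results of these data known. Among the 16341 genes counted, 9 of the 10 were found. Of these, 8 were among the 11717 genes with enough counts to be tested. Hpgd was not analysed here.

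RNA was sequenced from 2 fractions of 4T1, an established mouse mammary carcinoma line that metastasizes from the mammary fat pad. The fractions, 4T1-Sca1+ and 4T1-Sca1-, were separated by staining for SCA1, a surface protein encoded by Ly6a, on magnetic columns, and each was measured in 4 libraries. The sort labels add that all cells were CD45-. The source label names the parental line as the origin, whereas the protocol speaks of stained tumor, and no label gives a treatment, an age or an engineered allele. Both groups come from 1 cell line, a magnetic column enriches rather than purifies, and the labels do not say that the replicates were separate sorts. The p-values therefore measure the spread between these libraries, which may be technical. Comparing the fractions asks which prostaglandin transcripts distinguish cells that carry SCA1 from cells that do not.

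Prostaglandin synthesis starts when cytosolic phospholipase A2 (Pla2g4a) frees arachidonic acid from membranes. The cyclooxygenases COX-1 (Ptgs1) and COX-2 (Ptgs2) turn it into prostaglandin H2, and prostaglandin E synthases, of which the microsomal enzyme encoded by Ptges is the inducible form, turn that into prostaglandin E2. The product leaves the cell and binds the receptors EP1 to EP4. EP1 (Ptger1) is known for calcium signaling and EP4 (Ptger4) for raising cyclic AMP. The enzymes encoded by Hpgd and Ptgr1 take part in inactivation. In mammary tumors COX-2 is the best known of these genes, being an inducible enzyme linked to inflammation and to tumor spread.

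The 3 genes whose differences carry most of the account below are Ptgs2, Ptgs1 and Ptges. The 250 bases before each start site are shown because they lie next to the annotated start of transcription. These 3 genes differed between the fractions in opposite directions. The sequences are from RefSeq on GRCm38.p6, written 5′ to 3′ on the strand of the gene, with capitals marking matches to a motif. They lie at chr1:150099781-150100030 on the plus strand for Ptgs2, chr2:36230176-36230425 on the plus strand for Ptgs1 and chr2:30903298-30903547 on the minus strand for Ptges.
Ptgs2: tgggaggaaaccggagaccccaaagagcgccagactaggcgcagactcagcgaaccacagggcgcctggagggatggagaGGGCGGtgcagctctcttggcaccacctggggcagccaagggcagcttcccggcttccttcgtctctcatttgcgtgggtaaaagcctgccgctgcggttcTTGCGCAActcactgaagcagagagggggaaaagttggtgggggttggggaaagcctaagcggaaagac
Ptgs1: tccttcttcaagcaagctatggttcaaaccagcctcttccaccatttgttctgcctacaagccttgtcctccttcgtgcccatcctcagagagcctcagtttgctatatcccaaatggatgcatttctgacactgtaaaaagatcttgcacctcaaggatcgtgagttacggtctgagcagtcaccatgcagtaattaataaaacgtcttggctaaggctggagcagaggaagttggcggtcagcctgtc
Ptges: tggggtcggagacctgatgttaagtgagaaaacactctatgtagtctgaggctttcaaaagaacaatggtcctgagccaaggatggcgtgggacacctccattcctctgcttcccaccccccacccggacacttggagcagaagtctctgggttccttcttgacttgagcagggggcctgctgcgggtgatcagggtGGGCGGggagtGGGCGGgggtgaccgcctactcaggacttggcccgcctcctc

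Both strands of each window were searched for 8 motifs. These were a TATA box (TATAAA), a cyclic AMP response motif (TGACG), an E-box (CACGTG), a C/EBP motif (TTNCGNAA), an NF-kappaB consensus, a GC box (GGGCGG), an AP-1 motif (TGANTCA) and an antioxidant response motif (TGACNNNGC), of which the second and the last can share bases. The Ptgs2 window held 1 C/EBP match, which starts 69 bases before the start site, and 1 GC box 170 bases before it. A C/EBP match was present in 2.04% of 32851 mouse promoter windows of the same length, and a GC box in 32.7%. The Ptges window held 2 GC boxes, 53 and 42 bases before the start, which do not overlap. In the Ptgs1 window none of the 8 letter patterns occurred. GC content was 61.6% in the Ptgs2 window, 59.6% in the Ptges window and 48.0% in the Ptgs1 window. A match is a description of letters and not a bound site, and promoter entries were available for 9 of the 10 genes. Bases outside the windows were not searched, so a motif absent here may lie beyond them.

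The labels were checked first. For Ly6a the normalized count was 167 ± 20.2 in the 4T1-Sca1+ and 1.79 ± 1.73 in the 4T1-Sca1- libraries (SD, n = 4), where a normalized count is the read count divided by the library's size factor. Library totals ran from 15041995 to 16968215 counts in 4T1-Sca1+ and from 13561804 to 16142836 in 4T1-Sca1-. The epithelial keratins Krt8 and Krt18 were abundant in both groups, at 13673 and 16514 normalized counts in 4T1-Sca1+ and 11093 and 12802 in 4T1-Sca1-. Ptprc, which encodes CD45, had at most 4 counts in any library.

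The tested enzymes of the pathway were expressed in both fractions, and most differed in level. Ptges, Ptgs1, Ptgr1 and, by a small margin, Ptges2 were higher in 4T1-Sca1+ cells, while Ptgs2, Ptges3 and Ptger4 were lower. Pla2g4a was not called. A gene was called at an adjusted p under 0.05 by edgeR's quasi-likelihood test, adjusted over all tested genes. By this rule 7 of the 8 tested genes were called, 4 higher and 3 lower, against 61.5% of all tested genes (31.3% higher and 30.2% lower). A called gene is thus the usual case in this comparison, and size separates the genes better than the call. Ptgs1 and Ptges were called with a log2 fold change of at least 1, which 5.22% of all tested genes were. Ptgs2 was called and at least 1.5-fold lower, which 4.08% were. The cut-offs differ by direction and were not set beforehand, so these shares are a description. Ptgr1, at 1.57-fold higher, passes only the smaller cut-off, and Ptgs2, at 1.59-fold lower, does not pass the larger one. For 6 of the 8 genes the libraries of the 2 groups lay apart, against 54.7% of all tested genes. The median log2 fold change was 0.06 over the 8 genes and 0.01 over all tested genes. Over all genes 3668 were called higher and 3538 lower, and with offsets corrected for GC content 3035 higher and 4816 lower. Because the RNA is from bulk fractions, fewer cells expressing a gene and less RNA per cell cannot be told apart.

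**Figure D1:**
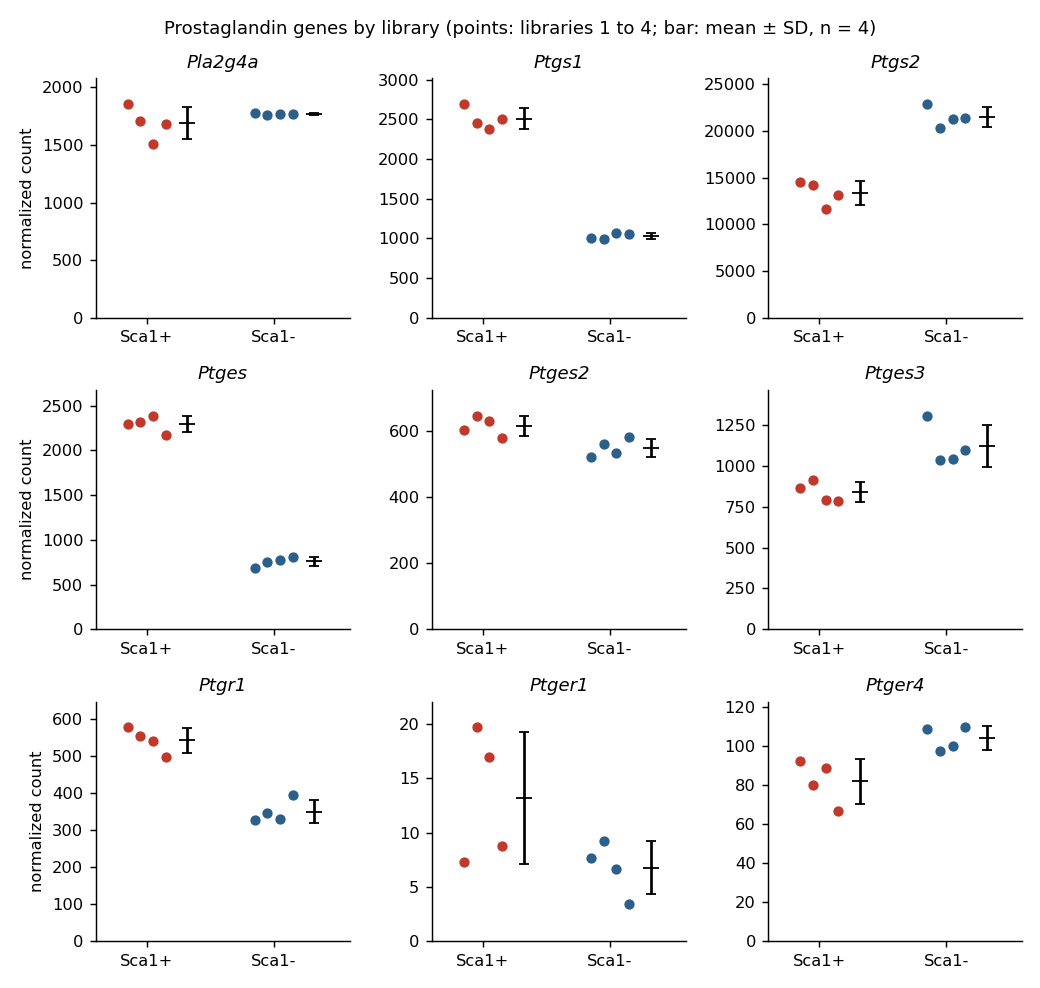
Normalized count (vertical axis, from 0) of the 9 counted genes in each library of 4T1-Sca1+ (red) and 4T1-Sca1- (blue), with mean ± SD of 4 beside the points. The groups lie apart for Ptgs1, Ptgs2, Ptges, Ptges3, Ptgr1 and Ptger4 and overlap for Pla2g4a, Ptges2 and Ptger1.

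The first step of the pathway was at a similar level in both fractions. Pla2g4a had normalized counts of 1855, 1712, 1513 and 1680.3 in 4T1-Sca1+ libraries 1 to 4, and of 1780.1, 1758, 1769 and 1766 in 4T1-Sca1- libraries 1 to 4. Library 3 of 4T1-Sca1+ was the lowest and library 1 the highest of all 8, so the 4T1-Sca1- values lay inside the 4T1-Sca1+ range. The log2 fold change was -0.05 (standard error 0.06, adjusted p = 0.434). Its 95% interval, from -0.17 to 0.06, bounds the difference that these libraries allow. It was not called in any of 17 alternative fits, where the value ran from -0.10 to -0.005.

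Both cyclooxygenases differed, in opposite directions. Ptgs1, the constitutive isoform found on GRCm38 chromosome 2 (36230426 to 36252272), had normalized counts of 2692, 2455, 2379.9 and 2499.5 in the 4T1-Sca1+ libraries against 1002, 994, 1068 and 1054 in the 4T1-Sca1- libraries. Every 4T1-Sca1+ library exceeded every 4T1-Sca1- library, with a wide gap. The log2 fold change was 1.30, or 2.46-fold higher (standard error 0.05, adjusted p = 6.63e-13). Of the 11717 tested genes, 376 had a higher log2 fold change.

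Ptgs2, the inducible isoform on chromosome 1 (150100031 to 150108227), was very abundant and ranked 48 among all counted genes by mean normalized count. It had 14507, 14222, 11691 and 13169 normalized counts in 4T1-Sca1+ and 22899, 20305, 21304 and 21405.5 in 4T1-Sca1-. Here the 4T1-Sca1+ libraries were all below the 4T1-Sca1- libraries, and library 3 was the lowest. The log2 fold change was -0.67, or 1.59-fold lower (standard error 0.06, adjusted p = 3.94e-08), and 351 tested genes had a lower value. Across the 17 alternatives it ran from -0.71 to -0.59, and that of Ptgs1 from 1.22 to 1.34, with the call kept each time. Ptgs2os, an antisense transcript whose annotated span ends just before the Ptgs2 start at position 150099963, was examined after the values were seen. It had 185 ± 20.2 normalized counts in 4T1-Sca1+ and 267 ± 29.0 in 4T1-Sca1- (SD, n = 4), a log2 fold change of -0.51 (standard error 0.10, adjusted p = 0.000182).

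**Figure D2:**
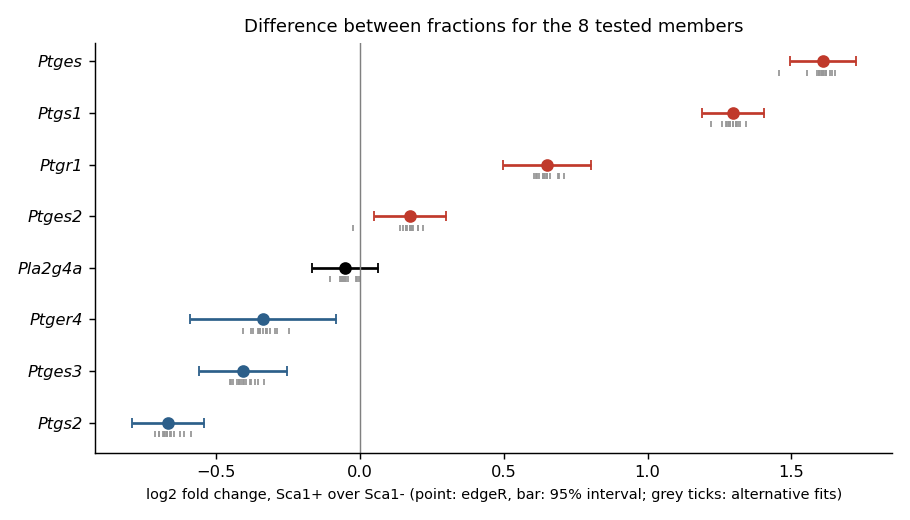
Log2 fold change of 4T1-Sca1+ over 4T1-Sca1- (horizontal axis) for the 8 tested genes, with the edgeR estimate and 95% interval (red called higher, blue called lower, black not called) and grey ticks for the alternative fits. Ptges at 1.61 and Ptgs1 at 1.30 lie farthest to the right, Ptgs2 at -0.67 farthest to the left, and a single tick of Ptges2 lies left of 0.

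Levels of different genes were compared only per length, as RPKM (reads per kilobase of exon, scaled to library size). On this scale Ptgs2 was at 193 ± 18.9 RPKM in 4T1-Sca1+ and 307 ± 15.6 in 4T1-Sca1-, and Ptgs1 at 42.7 ± 2.36 and 17.4 ± 0.65 (SD, n = 4). The Ptgs2 level was 4.57, 4.91, 4.17 and 4.47 times the Ptgs1 level in the 4T1-Sca1+ libraries, and 19.4, 17.3, 16.9 and 17.2 times in the 4T1-Sca1- libraries. Ptgs2 was thus the main cyclooxygenase transcript in all 8 libraries. Ptgs1 made up 18.1% ± 1.01 of the summed RPKM of both genes in 4T1-Sca1+ and 5.36% ± 0.31 in 4T1-Sca1-. The sum itself was 236 ± 20.7 RPKM in 4T1-Sca1+ and 325 ± 15.6 in 4T1-Sca1-, with the 4T1-Sca1+ libraries at 208 to 256 and the 4T1-Sca1- libraries at 306 to 345. With the longest transcript in place of all exons, the share was 22.6% and 6.94%. These sums and shares rest on the same counts as the tests above and are given as a description.

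**Figure D3:**
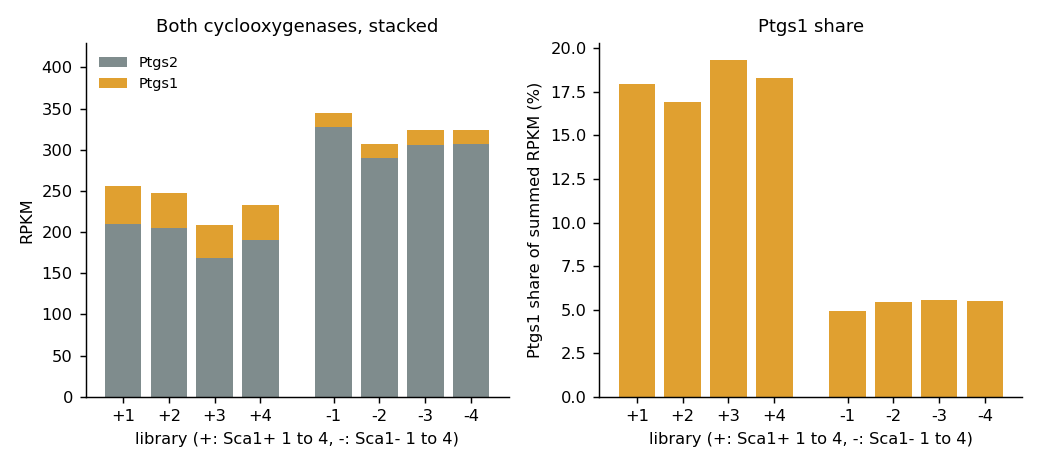
Left, RPKM of Ptgs2 (grey) and Ptgs1 (orange) stacked for each library; right, the percentage of that sum that was Ptgs1. The summed bars are lower in 4T1-Sca1+ (208 to 256) than in 4T1-Sca1- (306 to 345), while the Ptgs1 share is higher, at 16.9% to 19.4% against 4.91% to 5.58%.

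The prostaglandin E synthases did not move together. Ptges, which encodes the microsomal synthase that works with COX-2, had 2299, 2313, 2389 and 2177 normalized counts in 4T1-Sca1+ and 688, 758, 777 and 814 in 4T1-Sca1-. The 4T1-Sca1+ libraries were tightly grouped and far above the others. At a log2 fold change of 1.61 (standard error 0.05, adjusted p = 1.16e-13) it was 3.05-fold higher, the largest increase among the 8 tested genes. It stayed between 1.46 and 1.65 over the alternatives, and 244 tested genes had a higher value. Its annotated span on chromosome 2 runs from 30889471 to 30929863 on the minus strand, so the RefSeq window printed above lies inside it.

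Ptges and Ptgs2 therefore differed in opposite directions, although their enzymes act in sequence. The ratio of Ptges to Ptgs2 RPKM was 0.201 ± 0.0248 in 4T1-Sca1+ and 0.0413 ± 0.00428 in 4T1-Sca1- (SD, n = 4). Values ran from 0.185 to 0.238 in the first group and from 0.0350 to 0.0443 in the second. That these ranges lie apart follows from the separation of each gene in opposite directions. The ratio rests on the same counts as the tests above and is given as a description.

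Ptges2, a second membrane-associated synthase, had 605, 648, 631 and 580.2 normalized counts in 4T1-Sca1+ and 523, 561, 535 and 583 in 4T1-Sca1-. Library 4 of 4T1-Sca1- lay above library 4 of 4T1-Sca1+, so the groups overlapped. Its log2 fold change was 0.17 (standard error 0.06, adjusted p = 0.0161). The call did not stand under offsets corrected for GC content, where the value was -0.03 (adjusted p = 0.694). It was also lost without 4T1-Sca1+ library 2 (0.15, adjusted p = 0.0576), without 4T1-Sca1- library 1 (0.14, adjusted p = 0.0695) and without 4T1-Sca1- library 3 (0.16, adjusted p = 0.0503).

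Ptges3 encodes p23, a cochaperone of HSP90 that also has cytosolic prostaglandin E synthase activity. Its normalized counts were 866, 913, 789 and 786 in 4T1-Sca1+ and 1306, 1038, 1042 and 1095 in 4T1-Sca1-. The groups did not overlap, and 4T1-Sca1- library 1 was the highest. The log2 fold change was -0.41 (standard error 0.07, adjusted p = 0.000111), and it ran from -0.45 to -0.33 over the alternatives. A processed pseudogene, Ptges3-ps, was not analysed here, and whether the counting split reads between such copies was not given in the sources used here. The related gene Ptges3l, looked up after the values were seen, had 59.2 ± 11.3 and 40.8 ± 6.00 normalized counts (SD, n = 4) in 4T1-Sca1+ and 4T1-Sca1-, a log2 fold change of 0.55 (standard error 0.17, adjusted p = 0.00960).

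On the inactivating side, Ptgr1 was higher in 4T1-Sca1+. It encodes prostaglandin reductase 1, which reduces 15-keto prostaglandins and also leukotriene B4 metabolites and reactive aldehydes. The 4T1-Sca1+ libraries had 578, 553, 541 and 496 normalized counts and the 4T1-Sca1- libraries 326, 346, 329 and 394. The lowest 4T1-Sca1+ library exceeded the highest 4T1-Sca1- library. The log2 fold change was 0.65, or 1.57-fold higher (standard error 0.07, adjusted p = 5.6e-07), and it kept its call in all 17 alternatives.

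The EP receptors were at low levels. Ptger4, the EP4 receptor, had 92.3, 79.9, 88.8 and 66.5 normalized counts in 4T1-Sca1+ and 109, 97.5, 100.2 and 109.6 in 4T1-Sca1-. The groups did not overlap, but the nearest libraries, at 92.3 and 97.5, were close. The log2 fold change was -0.34 (standard error 0.12, adjusted p = 0.0222). The call was lost without 4T1-Sca1+ library 4 (-0.25, adjusted p = 0.0870), without 4T1-Sca1- library 1 (-0.32, adjusted p = 0.0502) and without 4T1-Sca1- library 4 (-0.31, adjusted p = 0.0549). Its exons share 82 bases with Ttc33 on the opposite strand, which the library kit does not distinguish.

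Ptger1, the EP1 receptor, had 8, 20, 17 and 10 raw counts in 4T1-Sca1+ and 8, 9, 6 and 3 in 4T1-Sca1-, 55 against 26 in all. The groups overlapped, and the gene was below the filter on low counts. Without that filter edgeR gave a log2 fold change of 0.91 (standard error 0.38) at an adjusted p of 0.0448 over 16341 genes. DESeq2 gave an adjusted p of 0.102, and limma on the deposited normalized values gave 0.0544. The kit does not mark strand, so the few reads counted for Ptger1 were not assigned to a strand, and its values are uncertain to that extent.

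**Figure D4:**
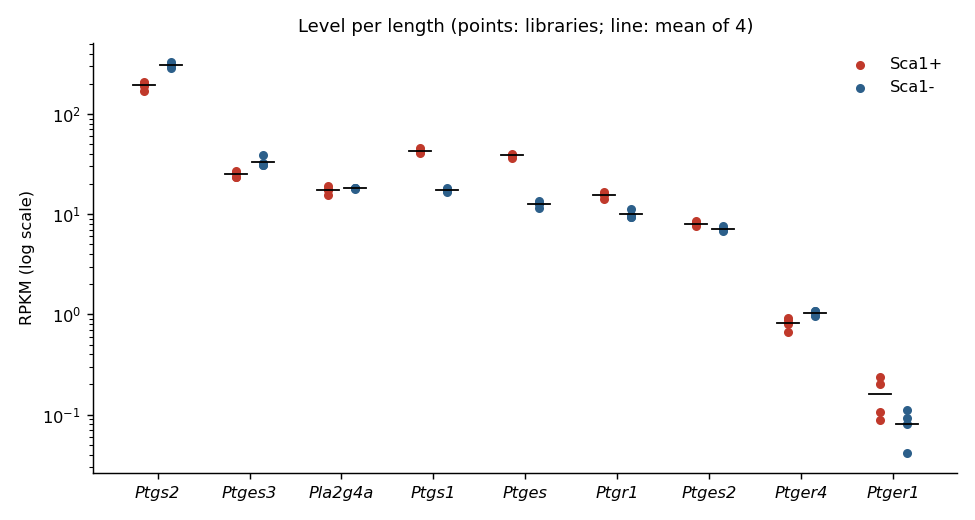
RPKM (log axis) of the 9 counted genes in each library of 4T1-Sca1+ (red) and 4T1-Sca1- (blue), ordered by the 4T1-Sca1- mean, with the mean of 4 as a line. Ptgs2 leads in both groups, at 193 and 307 RPKM, and the receptors Ptger4 (0.814 and 1.03) and Ptger1 (0.160 and 0.0810) are lowest.

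Ranked by RPKM, the order in 4T1-Sca1+ was Ptgs2, Ptgs1, Ptges, Ptges3, Pla2g4a, Ptgr1, Ptges2, Ptger4 and Ptger1. In 4T1-Sca1- it was Ptgs2, Ptges3, Pla2g4a, Ptgs1, Ptges, Ptgr1, Ptges2, Ptger4 and Ptger1. Ptgs1 and Ptges were thus in places 2 and 3 in 4T1-Sca1+ and in places 4 and 5 in 4T1-Sca1-. In 4T1-Sca1+ the neighbours Pla2g4a (15.6 to 19.2 RPKM) and Ptgr1 (14.3 to 16.7) overlapped, and in 4T1-Sca1- the neighbours Pla2g4a (18.0 to 18.3) and Ptgs1 (16.7 to 18.1) did. No other neighbours in either order overlapped. Ptges3, at 23.4 to 27.2 RPKM in 4T1-Sca1+ and 30.6 to 38.6 in 4T1-Sca1-, was the other gene whose place changed with the fraction beside Pla2g4a. Measured by the longest transcript, Pla2g4a moved above Ptges3 in 4T1-Sca1+, and the order in 4T1-Sca1- stayed as given.

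The genes around these steps were read from lists written from general knowledge. For the release and re-esterification of arachidonic acid, 6 of 13 genes were tested, of which 4 were higher, none lower and 2 not called, with a median log2 fold change of 0.47 against 0.01 over all tested genes. The share called, 66.7%, is near the 61.5% over all tested genes, and with GC-corrected offsets Lpcat3, which esterifies arachidonic acid into phospholipids, was also called, as lower (-0.17, adjusted p = 0.00503). Acsl4, a ligase that activates arachidonic acid for storage in phospholipids, was at 3777 ± 258 normalized counts in 4T1-Sca1+ and 2326 ± 241 in 4T1-Sca1- (log2 fold change 0.71, standard error 0.07, adjusted p = 6.78e-08). Pla2g6, the calcium-independent phospholipase A2, was at 1217 ± 76.4 and 814 ± 54.7 (0.59, standard error 0.06), and its log2 fold change was 0.30 with GC-corrected offsets. Acsl3, which also activates long-chain fatty acids and shares 244 exon bases with Utp14b, was higher by 0.35 (standard error 0.07). Pla2g4c was the other gene called, with a log2 fold change of 0.66 (standard error 0.19) on 156 counts against 89. The genes called were thus 2 phospholipases and 2 ligases.

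Other prostanoid synthases gave 5 tested genes of 10, of which 3 were higher and 2 lower, with a median of 0.89 against 0.01 over all tested genes. All 5 were called, against 61.5% of all tested genes. Cbr1, a carbonyl reductase that converts prostaglandin E2 to prostaglandin F2alpha, was at 448 ± 17.5 normalized counts in 4T1-Sca1+ and 215 ± 6.22 in 4T1-Sca1- (SD, n = 4), and the log2 fold change was 1.07 (standard error 0.07, adjusted p = 3.44e-10). Ptgds, a prostaglandin D synthase, had a log2 fold change of 2.15 (standard error 0.36) on 71 counts against 14, and Cbr3 one of 0.89 (standard error 0.30) on 60 against 29. Akr1b8 (-0.19, standard error 0.07) and Akr1b3 (-0.57, standard error 0.23), aldo-keto reductases, were lower. Only Cbr1 and Ptgds kept their calls in every alternative fit that tested them. The count of 5 fell to 3 without 4T1-Sca1+ library 4, 4T1-Sca1- library 2 or 4T1-Sca1- library 3.

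Transport and breakdown genes beside Ptgr1 showed little difference. None of 4 was called by edgeR, with 1 at an unadjusted p under 0.05 and 1 called by limma-voom and 0 by DESeq2, and the median log2 fold change was 0.01. The uptake carrier Slco2a1 was at 6327 ± 119 normalized counts in 4T1-Sca1+ and 5968 ± 252 in 4T1-Sca1- (0.10, standard error 0.04, adjusted p = 0.0561). Without 4T1-Sca1- library 2 the count called was 1. The export pump Abcc4 (-0.05), and the reductases Ptgr2 (-0.06) and Zadh2 (0.07), had standard errors of 0.05, 0.06 and 0.05. With GC-corrected offsets Abcc4 was called lower (-0.11, adjusted p = 0.0394).

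Few other prostanoid receptors were detected. Of 10 listed, 2 were tested. Ptgfrn, which encodes a membrane protein that associates with the prostaglandin F receptor and is not itself a receptor, was higher by 0.30 (standard error 0.04, adjusted p = 1.53e-05), and by 0.10 with GC-corrected offsets. Ppard, a nuclear receptor proposed to bind prostacyclin, was not called at -0.10 (adjusted p = 0.0990). It was called without 4T1-Sca1+ library 3, without 4T1-Sca1- library 1 or with GC-corrected offsets (-0.22), which made the count 2. Ptger3, the EP3 receptor, had 1 count in all, Ptgir 3 and Tbxa2r 12, so a difference in them was not detectable at this depth. Pparg, a nuclear receptor for prostaglandin J2 metabolites that was below the filter, had 31 counts in 4T1-Sca1+ and 0 in 4T1-Sca1-, and was called higher when the filter was dropped, by edgeR (adjusted p = 4.69e-06) and by DESeq2 (adjusted p = 5.56e-05). Ptger2, Ptgdr and Ptgfr were not analysed here.

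Downstream of the EP receptors, all 24 listed genes were tested, and 11 were higher and 4 lower, with a median of 0.06. This share of 62.5% is close to the 61.5% over all tested genes. The direction of the list depended on the scaling, since with GC-corrected offsets 8 were higher and 9 lower, with a median of -0.008. The largest difference was in Arrb1, a beta-arrestin that desensitizes receptors, at 439 ± 18.8 normalized counts in 4T1-Sca1+ and 133 ± 28.1 in 4T1-Sca1- (1.74, standard error 0.11, adjusted p = 2.94e-10). Prkar2b, a regulatory subunit of protein kinase A, was higher by 0.90 (standard error 0.06). The phosphodiesterases Pde4b (-0.76, standard error 0.08) and Pde4d (-0.59, standard error 0.12), which degrade cyclic AMP, were lower. In contrast Pde4a, of the same family, was higher (0.73, standard error 0.06), and by 0.47 with GC-corrected offsets. Gnaq (-0.18, standard error 0.05) and Prkar2a (-0.15, standard error 0.04) were the other lower genes. Gnas, which encodes the stimulatory G protein used by EP4, was at 16348 ± 544 and 16193 ± 487 normalized counts and was not called, but with GC-corrected offsets it was called lower (-0.25, adjusted p = 4e-06).

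Of 19 known regulators of the Ptgs2 transcript, all tested, 7 were higher, 7 lower and 5 not called, with a median of -0.07. Over all tested genes 31.3% were higher and 30.2% lower, and with GC-corrected offsets 7 of the 19 were higher and 10 lower. Cebpb, a transcription factor of the C/EBP family, was higher by 1.13 (standard error 0.09, adjusted p = 1.67e-08), at 1464 ± 171 normalized counts against 670.3 ± 111. With GC-corrected offsets its log2 fold change was 0.56, and it shares 312 exon bases with Tmem189 on the opposite strand. The interleukin-1 receptor gene Il1r1 was higher by 0.96 (standard error 0.07), and Zfp36l2, which encodes a protein that destabilizes transcripts, by 0.77 (standard error 0.07). Among the lower genes, 3 chosen after their values were seen were Rela, an NF-kappaB subunit (-0.56, standard error 0.05, and -0.89 with GC-corrected offsets), Il1a, the cytokine interleukin-1 alpha (-0.52, standard error 0.06), and Zfp36, which also destabilizes transcripts (-0.56, standard error 0.07). Jun and Fos, the components of AP-1, were not called, at -0.07 and -0.06, but with GC-corrected offsets both were called lower (-0.29, adjusted p = 3.02e-05, and -0.16, adjusted p = 0.0486).

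The competing branches of arachidonic acid metabolism gave 7 tested genes of 18, with 4 higher, 2 lower and a median of 0.38. A further 9 were below the filter, 8 of them with at most 10 counts in any library, and 2 were not analysed. The lipoxygenases Alox15, Alox8, Alox12b and Alox12e were among these low genes. Ephx2, another epoxide hydrolase below the filter, had 24 counts in 4T1-Sca1+ and 45 in 4T1-Sca1-. The 6 called genes compare with 61.5% called over all tested genes. Ephx1, the microsomal epoxide hydrolase, was at 224 ± 2.81 normalized counts in 4T1-Sca1+ and 36.6 ± 8.83 in 4T1-Sca1- (2.62, standard error 0.13, adjusted p = 9.69e-12). Mgst2, which can make leukotriene C4, was higher by 1.20 (standard error 0.11), whereas Aloxe3, an epidermal lipoxygenase, was lower by 1.21 on the log2 scale (-1.21, standard error 0.15).

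**Figure D5:**
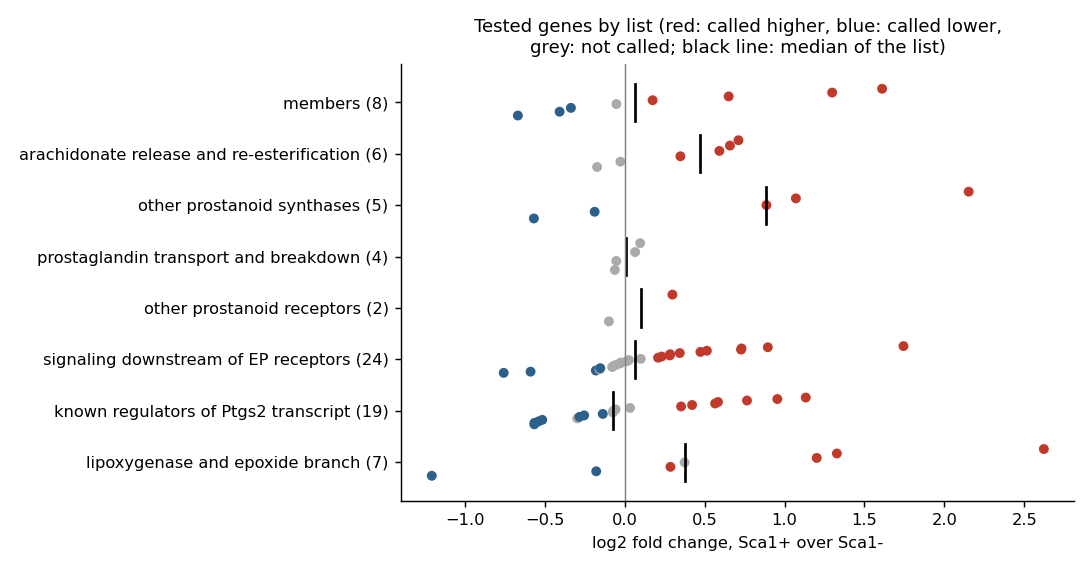
Log2 fold change of 4T1-Sca1+ over 4T1-Sca1- for the tested genes of each list (number tested in brackets), red called higher, blue called lower, grey not called, with the median as a black line. The 4 transport and breakdown genes stay near 0, while the release list has its median at 0.47 and the regulators of Ptgs2 lie on both sides; values with GC-corrected offsets are not drawn.

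Markers of other cells were looked at, since leukocytes and fibroblasts also express several of these genes. The summed normalized count of 10 leukocyte markers was 1111 to 1175 in 4T1-Sca1+ and 1058 to 1162 in 4T1-Sca1-. Most of this sum was Cd14, at a mean of 703 in 4T1-Sca1+ and 865 in 4T1-Sca1-, so it says little about the other markers. All 5 tested were called, against 61.5% of all tested genes, with Csf1r, S100a8, Cd68 and Cd74 higher and Cd14 lower. S100a8 differed most, with 164 counts in 4T1-Sca1+ against 28 in 4T1-Sca1- (log2 fold change 2.38, standard error 0.27). The log2 fold change was 1.18 for Csf1r, 0.94 for Cd74, 0.65 for Cd68 and -0.29 for Cd14. Csf1r, with 236 counts in all, shares 873 exon bases with Hmgxb3 (13657 counts) on the opposite strand, which the kit does not distinguish. The defining markers Ptprc, Cd3e, Itgam and Lyz2 had at most 4 counts in any library (Ptprc 10 in all against 2). For 7 fibroblast markers the sum was 635 to 671 in 4T1-Sca1+ and 395 to 468 in 4T1-Sca1-, most of it from Pdgfra. Pdgfra and Col1a1 of the 3 tested were higher, and of those below the filter Dcn had 49 counts in 4T1-Sca1+ against 4 in 4T1-Sca1-, Pdgfrb 27 against 1, Col1a2 19 against 18 and Fap 4 against 11. Endothelial markers summed to 33.8 to 40.9 and 42.3 to 63.9, with Tie1 lower as the only one tested and Pecam1 at 21 counts against 4, and mast cell and platelet markers to 28.3 to 40.4 and 21.0 to 43.1 with none of 1 called. Epithelial markers summed to 35308 to 38373 in 4T1-Sca1+ and 32357 to 34245 in 4T1-Sca1-, with Krt8 and Krt18 higher and Krt14 and Cdh1 lower. The part of these marker differences in the prostaglandin gene differences was not tested.

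Profiles over the 8 libraries were compared with those of Ptges and Ptgs2, the genes with the highest and lowest log2 fold change among the 8, by the root mean square distance between centred log2 CPM (counts scaled to library size) over 9367 genes. Nearest to Ptges were Olfm1 (distance 0.0569) and Xdh (0.0758), followed by Spn, Acox2 and Adamts10. Nearest to Ptgs2 were Macc1 (0.0257) and Cct8 (0.0263), followed by Pus10, Serpinb6a and Usp15. Such a ranking is a description in which all genes share the same 8 libraries and the same 2 groups.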

How the data were processed

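RNA was measured in 4 libraries of 4T1-Sca1+ and 4 of 4T1-Sca1- cells, made per the labels with a TruSeq RNA kit, a kind that does not mark strand. The authors deposited raw counts per Ensembl gene (16341 genes) and a table of normalized signal values (15372 genes). The submitters' processing notes name cutadapt 1.16, STAR 2.5.3a and the builds GRCm38 and mm10, while the counting tool and annotation were not given in the sources used here. The deposited signal equalled the counts divided by DESeq2 size factors (relative difference at most 5e-15) and lacked 969 genes. No columns of other samples were present.

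Symbols and positions came from GENCODE M21 on GRCm38, in which 16200 of the Ensembl IDs were found and 141 were not. Counts were tested with edgeR 4.0.16 in R 4.3.3 (filterByExpr, TMM, two-sided quasi-likelihood test, no covariate), with Benjamini-Hochberg adjustment over 11717 tested genes and calls at 0.05. RPKM used TMM-scaled library sizes and the union of exons. Normalized counts are means ± SD of 4 libraries. Libraries of 1 group differed by more than counting noise (chi-square per degree of freedom 1.88 to 9.67). The highest values, 6.75 to 9.67, were those of the pairs with 4T1-Sca1+ library 3, while the other 4T1-Sca1+ pairs gave 2.14 to 3.87. Total counts ran from 13561804 to 16968215, and at most 3 counts per library was taken as the floor, which covers counting error only.

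The members and the lists were chosen with earlier results of these data known. All 10 members were named, and from each wider list the 3 called genes with the largest absolute change at a mean normalized count of at least 50, plus genes needed to explain a count of 5 or fewer. For the ranking of similar profiles, genes had a mean normalized count of at least 100 and CPM a prior count of 2. The motifs, the cyclooxygenase and Ptges ratios, Ptgs2os and Ptges3l were chosen after values were seen. Alternatives were DESeq2 size factors, library totals, GC-corrected offsets, no filter, a minimum of 10 counts per library, limma-voom (limma 3.58.1), DESeq2 1.42.0, limma on the deposited signal as log2(value + 1), the replicate block, an adjusted p under 0.01, longest-transcript lengths and each library left out. Each test was tested on simulated data.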

Additional observations from a re-analysis of the deposited data

Results flagged for a closer look

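Among 26 groups of 4 library values examined, 1.3 would be set apart by chance at this level and 2 were. The Ptgs2 to Ptgs1 RPKM ratio was 19.4 in 4T1-Sca1- library 1, against 16.9 to 17.3 in the other 3 libraries of that group. The Ptges to Ptgs2 RPKM ratio was 0.238 in 4T1-Sca1+ library 3, against 0.185 to 0.193 in the other 3, and that library had the lowest Ptgs2 count. Neither value brought the groups into overlap.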

How the results depend on the processing

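Of the count results, 145 of their alternative values stayed within 1.5 times the reported count and 17 did not. For single genes, 129 of the alternative values kept direction and call, 6 lost the call and 1 reversed. The reversal was Ptges2 at -0.0253 (log2 fold change) with GC-corrected offsets, and the lost calls were those of Ptges2 and Ptger4 without single libraries, given above. Other prostanoid synthases (5 called) gave 3 with library totals, 3 with at least 10 counts in every library, 2 at an adjusted p under 0.01 and 3 to 5 when each library was left out. Transport and breakdown (0 called) gave 1 with library totals, GC-corrected offsets, at least 10 counts or limma-voom, and 0 to 1 with each library left out. Other prostanoid receptors (1 called) gave 2 with GC-corrected offsets, no filter, DESeq2 or limma on the deposited values, and 1 to 2 with each library left out. The causes were not tested, except that the stricter filters test fewer genes. Low counts limit Ptger1, Ptgds, Akr1b3 and Cbr3.

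With the replicate number as a block, 3605 genes were higher and 3452 lower, and the calls of the 8 tested prostaglandin genes, 4 higher and 3 lower, were the same. Same-numbered libraries did not deviate together (correlations 0.0957, -0.15, -0.0339 and -0.0011), so the numbers were not taken to pair them.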
